A study of Rattus norvegicus with 9 samples.

Results

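Left testes of rats with a varicocele that had been treated with a plant polysaccharide were compared with left testes of sham-operated rats, using 6 of the 9 RNA sequencing libraries of the study. The members were taken from the sample titles: 3 libraries of the treated group (VC+MOP) and 3 of the control group. All animals were male Sprague Dawley rats, with an age of 6 to 7 weeks in the labels. VC+MOP rats had the vein of the left kidney partly tied off and received 300 mg per kg of Morinda officinalis polysaccharide (MOP) by gavage every day, starting 8 weeks after the operation and lasting 4 weeks. The other 3 libraries came from rats with the same ligation given about 2 mL of saline a day by gavage over the same weeks (VC), and they served here to show where untreated varicocele testes stood. Control rats had the operation without the ligation and were fed for 12 weeks, and the labels list no gavage for them. Ligation, gavage and polysaccharide therefore cannot be told apart in the comparison of VC+MOP with control. Operated rats whose veins had not dilated, or whose left kidney had shrunk, were excluded per the labels' protocols, so the groups with a varicocele hold selected animals. The labels do not state that each library came from its own rat, and the p-values reflect only how these libraries vary, which may be technical.

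A varicocele is an enlargement of the veins leaving the testis, and in people it is known for its association with reduced sperm quality. Pooling of warm venous blood, poor oxygen supply and oxidative stress are the disturbances usually discussed. The testis is a mixed organ in which germ cells at successive stages of spermatogenesis lie among supporting Sertoli cells, with testosterone-producing Leydig cells between the tubules. In RNA from whole testis, fewer cells of a type and less RNA per cell cannot be told apart. The deposited table lists Ensembl transcript identifiers without genes, and none of them (0 of 19532) was found in the gene table used here. The labelled tissue could not be checked against its markers, and the lists of testis cell types, hypoxia, heat shock, apoptosis, steroid synthesis and barrier junctions had no member that could be looked up. Transcripts are given by identifier for at most 2 that rose and 2 that fell, and the others by their values.

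The values are an abundance signal on a linear scale, 1 column per library, and read depth is unknown. The 6 libraries were similar in summed signal. Their signals summed to 480393 to 485064 in VC+MOP and 478800 to 484215 in control libraries. The 100 most abundant transcripts held 17.9% ± 0.247 of the signal in VC+MOP and 17.9% ± 0.438 in control libraries (SD, n = 3 each; two-sided exact permutation p = 1). Transcripts at 0.5 or more numbered 18206, 18249 and 18230 in VC+MOP libraries, against 18355, 18341 and 18263 in control libraries. Every VC+MOP library lay below every control library in this count, a difference of -91.3 transcripts in the means (VC+MOP minus control), and the exact permutation p of 0.1 is the smallest that 3 against 3 can give (0.2 after adjustment over these 2 tests). The VC libraries, at 18221, 18361 and 18149, spanned both ranges. With a limit of 0.1 in place of 0.5 the difference turned to 4.67 more in VC+MOP. With a limit of 1 it was -71, and the groups overlapped, at 16160 to 16215 in VC+MOP and 16184 to 16305 in control libraries.

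Differences between 2 libraries were of similar size within and between the groups. The median absolute difference between libraries on the log2(value + 0.5) scale was 0.14 to 0.153 for the 3 pairs within VC+MOP, 0.13 to 0.142 for the 3 pairs within control and 0.13 to 0.169 for the 9 pairs between them. A pair of libraries differed by 2-fold or more in 726 to 766 transcripts within VC+MOP, in 794 to 822 within control and in 731 to 861 between the groups.

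Few transcripts differed between treated varicocele and sham testes. A total of 18753 transcripts reached 0.5 in 3 or more of these 6 libraries, and 8 of them changed (limma, Benjamini-Hochberg adjusted p below 0.05), which is 0.0427% of those tested. Of these, 3 rose in VC+MOP (0.016%) and 5 fell (0.0267%). In all 8 the VC+MOP libraries lay apart from the control libraries with no overlap, as they did, among all tested transcripts, in 6.2% with VC+MOP higher and 7.1% with VC+MOP lower. The 8 were of low to moderate abundance, the highest standing at rank 3503 of the tested transcripts by mean over the 6 libraries. At an unadjusted p below 0.05 stood 1245 transcripts (6.64%), 597 higher and 648 lower in VC+MOP, and these are not counted as changed on that ground.

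The largest rise among the 8 was that of ENSRNOT00000070986. Its abundance was 21.9, 25.6 and 20.3 in VC+MOP libraries, against 0.848, 0.977 and 1.02 in control libraries. All VC+MOP libraries were at least an order of magnitude above every control library, with a ratio of the means of 23.9. The log2 fold change on the log2(value + 0.5) scale was 3.99 ± 0.13 (SE; limma adjusted p = 1.39e-05). ENSRNOT00000080933 rose as well, with 22.1, 23.7 and 19 in VC+MOP libraries, against 2.91, 3 and 3.4 in control libraries. The ratio of its means was 6.96 and the log2 fold change 2.61 ± 0.14 (SE; limma adjusted p = 0.000288). Both transcripts thus reached nearly the same level in VC+MOP testes, 22.6 ± 2.75 and 21.6 ± 2.43 (SD, n = 3). The other transcript that rose did so less, to 3.87 ± 0.104 in VC+MOP, against 1.32 ± 0.137 in control testes (SD, n = 3 each; limma adjusted p = 0.00314).

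ENSRNOT00000038780 had the smallest p among the transcripts that fell. It was listed at 2.92, 3.05 and 2.71 in VC+MOP libraries, against 7.53, 9.37 and 7.22 in control libraries. The lowest control library was more than double the highest VC+MOP library, and the log2 fold change was -1.32 ± 0.11 (SE; limma adjusted p = 0.00524). ENSRNOT00000065931 was close to 0 in VC+MOP libraries, at 0.012, 0.0283 and 0.0215, against 0.73, 0.981 and 0.804 in control libraries (limma adjusted p = 0.0251). Its fitted log2 fold change of -1.36 is set largely by the pseudocount of 0.5, as it was -2.95 with 0.1 and -0.85 with 1. Among the VC+MOP and control libraries, this and 2 more of the 5 that fell reached 0.5 in control libraries only. They so passed the limit on low values through the group in which they were high. Their p-values are given with that limit.

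**Figure D1:**
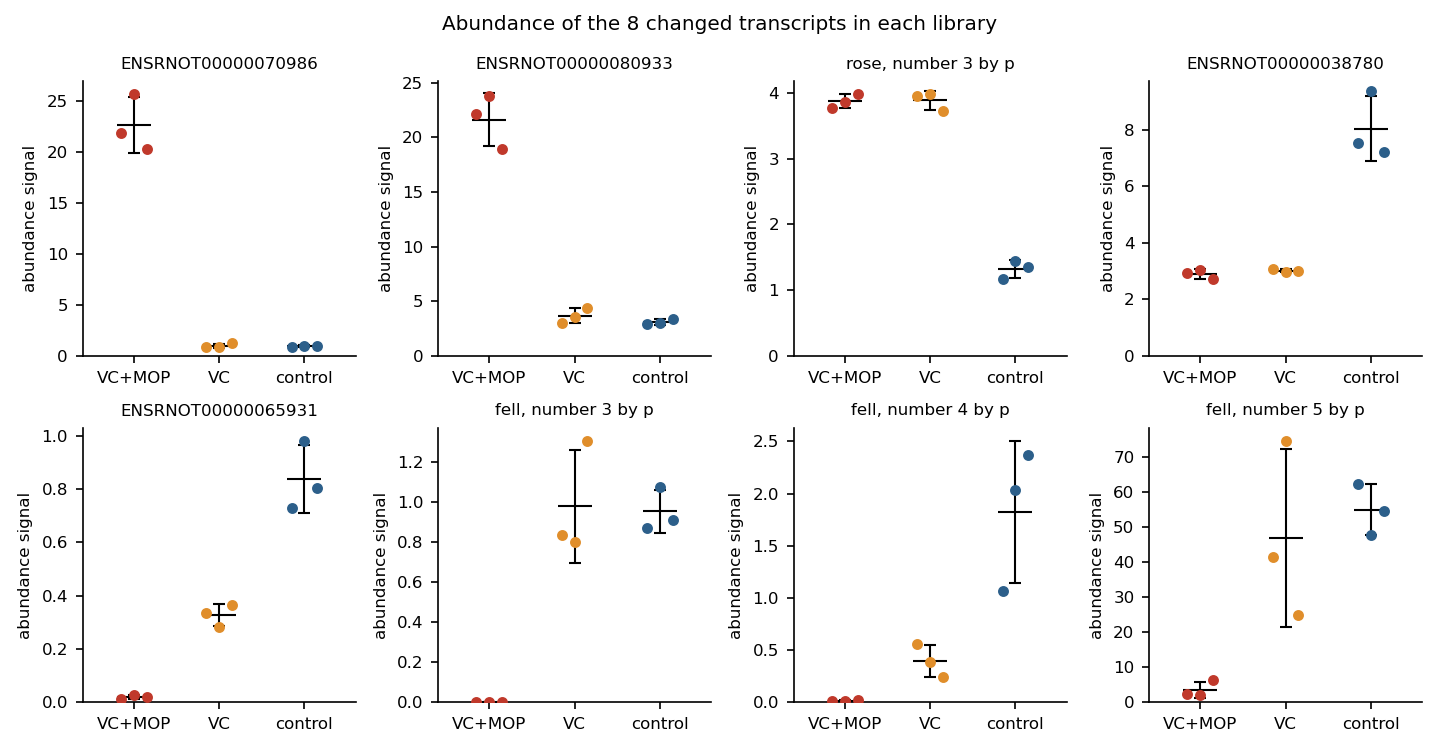
Abundance signal (vertical axes, linear, each panel with its own scale from 0) of the 8 changed transcripts in the VC+MOP, VC and control libraries; points are libraries, horizontal bars group means and whiskers SD (n = 3). ENSRNOT00000070986 averaged 22.6 in VC+MOP, 1.01 in VC and 0.947 in control libraries, while ENSRNOT00000038780 averaged 2.89, 3.02 and 8.04 in that order of groups.

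The 3 remaining transcripts that fell included one of higher abundance. It stood at 2.28, 2.17 and 6.28 in VC+MOP libraries, against 62.3, 47.7 and 54.7 in control libraries, and its log2 fold change was -3.9 ± 0.44 (SE; limma adjusted p = 0.039). Its control mean was 15.3 times its VC+MOP mean. Another was listed at 0 in all 3 VC+MOP libraries and at 0.874, 1.08 and 0.914 in control libraries (limma adjusted p = 0.0271). The last was listed at 0.0107, 0.0131 and 0.021 in VC+MOP libraries and at 1.07, 2.04 and 2.37 in control libraries (limma adjusted p = 0.039).

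The calls differed in how far they depended on single libraries. The 3 transcripts that rose and ENSRNOT00000038780 were called whichever of the 9 libraries was left out, with limma adjusted p values up to 0.0246. The other 4 transcripts that fell kept their call in only 1 to 3 of the 9 fits without a library: 1 fit for ENSRNOT00000065931 (limma adjusted p from 0.0448 to 0.113), and 3 for the transcript of higher abundance, with values up to 0.174. The number of calls was 15 without VC+MOP 3. The calls with VC+MOP higher numbered 6 and 7 without VC+MOP 1 and 3, and 5 and 7 without control 2 and 3. The calls with VC+MOP lower numbered 2 and 8 without VC+MOP 2 and 3, 2 without control 1, 2 without control 2 and 3 without VC 1.

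The VC libraries stood in different places for the 8. Their levels were not part of the contrast that called the 8, but their spread entered its variance: the fit to the 6 libraries alone called 5 of the 8, and the fit without VC 1 called 4. These comparisons share the control or the VC+MOP libraries and are given side by side. Over the same transcripts, VC+MOP against VC called 4 of 18753 (0.0213%) and VC against control called 3 (0.016%), and of the 8 transcripts 3 were called in VC+MOP against VC and 2 in VC against control. ENSRNOT00000070986 was at 0.865, 0.905 and 1.25 in VC libraries, next to the control range, and was called in VC+MOP against VC (log2 fold change 3.94 ± 0.13, SE; limma adjusted p = 1.55e-05). ENSRNOT00000080933 was at 3.01, 3.59 and 4.37 in VC libraries and was called there too (2.42 ± 0.14, SE; limma adjusted p = 0.000364). The transcript listed at 0 in VC+MOP was at 0.835, 0.801 and 1.31 in VC libraries (limma adjusted p = 0.0383 for VC+MOP against VC). For the transcript of higher abundance the VC libraries, at 41.5, 74.6 and 24.8, all lay above the VC+MOP libraries but were widely spread, and VC+MOP against VC did not pass (limma adjusted p = 0.107).

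In a pair of transcripts the VC libraries stood with VC+MOP instead. ENSRNOT00000038780 was at 3.06, 2.98 and 3 in VC libraries, so that all 6 varicocele libraries lay between 2.71 and 3.06. For it VC+MOP against VC gave a log2 fold change of -0.05 ± 0.11 (SE), and VC against control gave -1.27 ± 0.11 (SE; limma adjusted p = 0.00961). The smallest rise of the 8 had 3.95, 3.99 and 3.72 in VC libraries, and VC against control gave 1.27 ± 0.09 on the log2 scale (SE; limma adjusted p = 0.00459). ENSRNOT00000065931 lay in between, at 0.335, 0.285 and 0.364 in VC libraries, with no overlap with either other group. Neither step passed the threshold for it (limma adjusted p = 0.735 for VC+MOP against VC and 0.657 for VC against control). The last of the 5 that fell was likewise in between, at 0.556, 0.386 and 0.245 in VC libraries (limma adjusted p = 0.789 and 0.617 for the same steps).

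**Figure D2:**
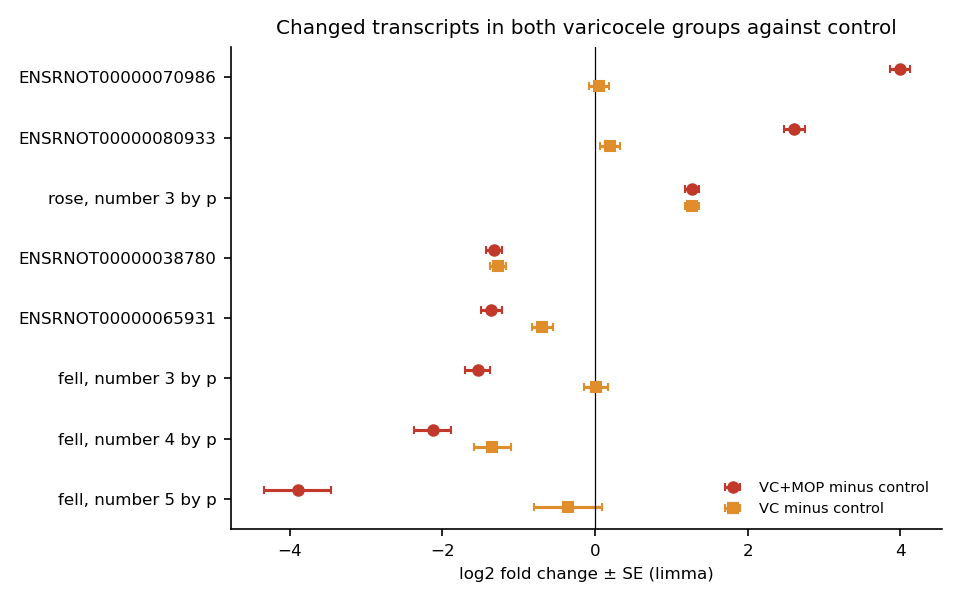
Log2 fold change over control (horizontal axis, log2(value + 0.5) scale, whiskers SE from limma) of the 8 changed transcripts, for VC+MOP minus control (circles) and VC minus control (squares), which share the control libraries. Both markers coincide for ENSRNOT00000038780, at -1.32 and -1.27, and lie far apart for ENSRNOT00000070986, at 3.99 and 0.05.

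The first 2 transcripts just outside the threshold were near 0 in VC+MOP libraries. The next in order of p was listed at 0, 0 and 0.0146 in VC+MOP libraries, against 0.648, 0.627 and 1.03 in control libraries (limma adjusted p = 0.089). The one after it was at 0 in all VC+MOP and all VC libraries, and at 0.592, 0.923 and 0.528 in control libraries (limma adjusted p = 0.11). The third was low but not near 0, at 0.271, 0.225 and 0.208 in VC+MOP libraries (limma adjusted p = 0.124). So was the fourth, at 0.166, 0.26 and 0.201 (limma adjusted p = 0.163). Below 0.05 in every VC+MOP library and at 0.5 or more in every control library were 7 transcripts. Of these 3 were called, against 0.0427% of all tested transcripts. The opposite pattern was held by 2 transcripts, and 0 of them were called. Both sets were picked by the values that were tested and passed the limit on low values through the group in which they were high. Their calls are therefore no further support. At such levels an entry of 0 can be a failed estimate, so these transcripts are only said to be listed at or near 0. Every deposited transcript had a mean of 0.5 or more in 1 group or another (the smallest such mean was 0.5001), and a transcript rarer than that in all groups is not analysed here.

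A large fold change alone did not bring a transcript past the threshold. A difference of 4-fold or more on the log2(value + 0.5) scale was found for 41 transcripts, 19 higher and 22 lower in VC+MOP. Of these, 4 were called and 18 had groups that did not overlap. Among all tested transcripts 0.0427% were called, and the groups did not overlap in 6.2% with VC+MOP higher and in 7.1% with VC+MOP lower. The 41 were picked by their difference in the same libraries, which favours groups that lie apart. The largest positive fold change of all, 4.21 ± 1.66 on the log2 scale (SE; limma adjusted p = 0.73), came from a transcript at 56.9, 36 and 53.2 in VC+MOP libraries and at 0, 0 and 70.2 in control libraries. It had 66.5, 63.2 and 38 in VC libraries, so the control libraries at 0 stood apart from the other 7. The largest fall among transcripts not called was from 1 listed at 0, 14.3 and 0.0071 in VC+MOP libraries and at 20.4, 20.9 and 20.7 in control libraries (limma adjusted p = 0.73). The control libraries of the first, and the VC+MOP libraries of the second, were split between values near 0 and high values.

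**Figure D3:**
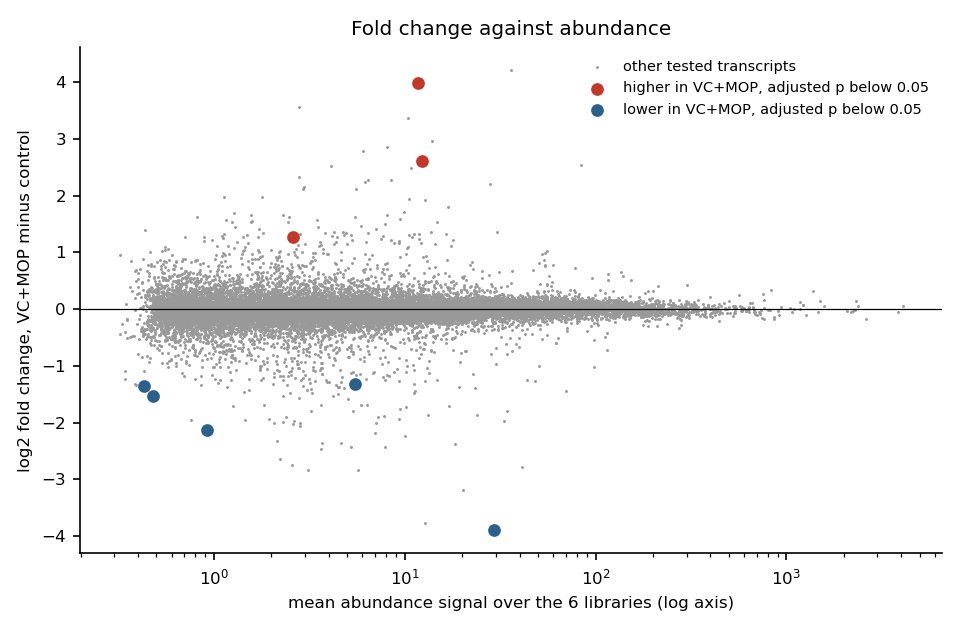
Log2 fold change of VC+MOP minus control (vertical axis, log2(value + 0.5) scale) against the mean abundance signal over the 6 libraries (horizontal log axis) for the 18753 tested transcripts; large points are the 3 transcripts that were higher and the 5 that were lower in VC+MOP at a limma adjusted p below 0.05. The highest grey point, at 4.21, has an SE of 1.66, against 0.13 for the called transcript at 3.99.

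A less strict count gave more transcripts in both directions. At an unadjusted p below 0.05 with a difference of at least 2-fold stood 122 transcripts (0.651%), 57 higher and 65 lower in VC+MOP. Of the 122, 74 had a mean between 1 and 5, a class that held 6194 of the 18753 tested transcripts. Another 20 had a mean below 1, where the added 0.5 shrinks the fold change. On the log2(value + 0.5) scale, the VC mean was nearer to the VC+MOP mean in 59 and nearer to the control mean in 63 of the 122. In 34 of the 122 the VC mean lay outside both other group means. The 122 were picked by the difference between VC+MOP and control in these same libraries. The groups did not overlap, with VC+MOP higher, in 1163 transcripts (6.2%), and with VC+MOP lower in 1331 (7.1%). Most such gaps were narrow, with a median of 0.05 on the log2 scale, and 22 reached 1 or more, 8 with VC+MOP higher and 14 with VC+MOP lower. The 8 called transcripts were among these 22.

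The spread of fold changes narrowed with abundance. In transcripts with a mean below 1 the middle 90% of log2 fold changes lay between -0.51 and 0.5, and in those at 100 or more between -0.14 and 0.15. Coefficients of variation within a group followed the same order, with medians of 26.9% in VC+MOP and 26.9% in control libraries for means below 1, 8.18% and 7.77% for means of 5 to 20, and 4.09% and 3.61% for means of 100 or more. On the log2(value + 0.5) scale, the 95% interval of the fold change lay within 2-fold either way for 88% of all tested transcripts. This share was 73.6% for means below 1 and 82.5% for means of 1 to 5. It reached 92.5% for means of 5 to 20, 97.1% for means of 20 to 100 and 99.4% above that. Changes of 2-fold or more could thus be bounded for nearly all abundant transcripts. For rare transcripts the added 0.5 shrinks the fold change, so these intervals do not bound the ratio of the abundances themselves.

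**Figure D4:**
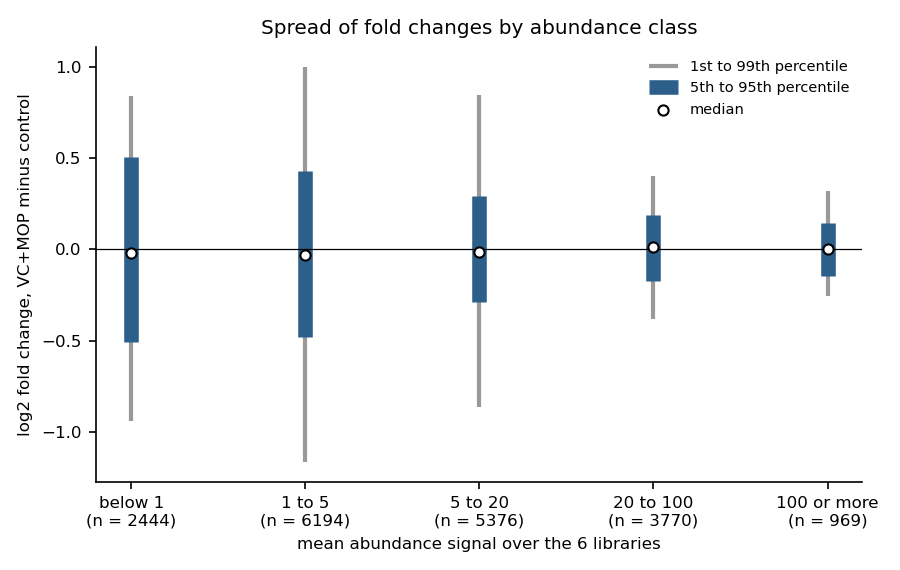
Log2 fold change of VC+MOP minus control (vertical axis, log2(value + 0.5) scale) by class of mean abundance signal over the 6 libraries (horizontal axis, with the number of transcripts); circles are medians, thick bars the 5th to 95th and thin bars the 1st to 99th percentile. The thick bar runs from -0.51 to 0.5 for means below 1 and from -0.14 to 0.15 for means of 100 or more.

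The balance of small shifts differed between classes of abundance. From a mean of 1 to 5, 57.2% of transcripts were lower in VC+MOP (3540 of 6194), with a median log2 fold change of -0.03. From 20 to 100, 43.5% were lower (1640 of 3770), with a median of 0.01. The shares that were lower were 54% below a mean of 1, 53.8% from 5 to 20, and 49.2% at 100 or more, where the median was 0.0017 and 53.5% were lower without control 1. At an unadjusted p below 0.05 the class of 1 to 5 held 144 higher and 233 lower transcripts, and that of 20 to 100 held 190 higher and 107 lower. With quantile scaling these counts were 196 higher and 185 lower, and 153 higher and 147 lower. In these 2 classes the shares of all transcripts stayed on their side of an even split with median-of-ratios scaling, at 55.6% and 40% lower, and were nearly even, at 50.1% and 48.6%, with quantile scaling, which gives all libraries the same distribution. Without single libraries they ran from 54.4% to 60.1% in the class of 1 to 5 and from 41.6% to 46.3% in that of 20 to 100. The median shifts of these 2 classes were smaller than the median SE of a single transcript in them, 0.16 and 0.07. That SE does not measure the uncertainty of a class median. Transcripts of a library are not independent, and the class medians were not tested.

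Fold changes of the most abundant testis transcripts were small. Among the 100 with the highest means over the 6 libraries, all at 411 or more, 0 were called by limma at an adjusted p below 0.05 and 16 had an unadjusted p below 0.05, 8 higher and 8 lower in VC+MOP. An unadjusted p below 0.05 was reached by 6.64% of all tested transcripts and by 13.4% of those with a mean of 100 or more. Log2 fold changes of the 100 ran from -0.20 to 0.33, and the 95% interval lay within 1.5-fold for all 100. The transcript with the smallest p among them was at 701, 706 and 701 in VC+MOP libraries, against 757, 803 and 777 in control libraries, or -0.15 ± 0.03 on the log2 scale (SE; limma adjusted p = 0.374). The largest difference of the 3 with the smallest p was 1408, 1534 and 1639 in VC+MOP libraries, against 1300, 1176 and 1207 in control libraries (log2 fold change 0.31 ± 0.06, SE; limma adjusted p = 0.385). In both the groups did not overlap, as in 20.8% of all tested transcripts with a mean of 100 or more. Neither passed the threshold, and both were picked by p-values from the same libraries.

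The 779 transcripts left out by the limit on low values were mostly seen in few libraries: 703 reached 0.5 in 1 or 2 of the 6 libraries and 76 in 0 of them. The highest value among them was 149 in VC+MOP 1, for a transcript at 0.033 and 0.092 in the other VC+MOP libraries and at 0.0449, 0.0146 and 0.0302 in control libraries. Another was at 92.4 in control 1 and at 0 in the other 8 libraries of the study. Both separated 1 library from the rest and had no part in the test.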

How the data were processed

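Per the labels' protocols, total RNA of left testis was fragmented, reverse transcribed from random primers and made into libraries with a dUTP second strand. Each library has 1 column of deposited abundance signal per transcript, per the file headers, with no unit named: FPKM and TPM could not be told apart. Cutadapt, HISAT2 2.0.5 and StringTie 1.3.1c are named in the submitters' processing notes without roles, as is hg19, a human build, although the identifiers are those of rat transcripts. No source used here names the rat annotation.

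The unscaled values entered the fit as log2(value + 0.5). limma 3.58.1 in R 4.3.3 (trended empirical Bayes, group as the only term, all 9 libraries, 6 residual degrees of freedom) tested the 18753 transcripts that reached 0.5 in 3 or more of the 6 VC+MOP and control libraries. Tests were two-sided. A fold change on this scale understates changes of rare transcripts. The fit was tested on simulated data with normal noise on the log2 scale. Such noise does not reproduce transcripts that are absent in some libraries of a group and high in others, so the simulation does not cover those. Identifiers are given for the 2 called transcripts of each direction with the smallest p. Members and lists were chosen with earlier results of these data known. The alternatives were other pseudocounts, filters, scalings, variance models, thresholds, the replicate block, the 6 libraries alone and leaving out each library. Depth is unknown, and no counting intervals are given. Figures were drawn with matplotlib 3.10.9.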

Additional observations from a re-analysis of the deposited data

How the results depend on the processing

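Of the 8 changed transcripts, 4 passed the threshold in all 21 refits: the 3 that rose and ENSRNOT00000038780. The other 4 passed in 8 to 11 refits, and none of the 8 changed direction in any refit that gave a value. The count of changed transcripts was 4 (3 higher and 1 lower) with a mean of at least 1, with the replicate block, and, in a setting chosen after seeing the data, without transcripts below 0.05 in all of VC+MOP or all of control. In the first and the last of these, 3 of the 8 were not tested. It was 6 (3 lower) with a pseudocount of 1, 10 (5 higher and 5 lower, with 5 of the 8 among them) with the 6 libraries alone, and 122 (57 higher and 65 lower) for 2-fold differences at an unadjusted p below 0.05. Without single libraries it ran from 6 to 15, with 3 to 7 higher and 2 to 8 lower, and these lists held 4 to 7 of the 8. For ENSRNOT00000065931 the limma adjusted p was 0.113 with the 6 libraries alone and 0.276 with the replicate block, in a range from 0.0231 to 0.276. Deviations of same-numbered VC+MOP and control libraries had r from -0.06 to 0.01 across transcripts, and 0 of 6 libraries were closest to their own number. These values show no pairing by replicate number over all transcripts. They could not show a pairing limited to few transcripts, and the VC libraries were not part of them. The cause of the differences between settings was not tested.

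The share held by the 100 most abundant transcripts differed by 0.00388 percentage points (VC+MOP minus control). It was -0.0369 for the top 10 and -0.0313 for the top 1000, and ran from -0.238 to 0.19 without single libraries. The difference in transcripts at 0.5 or more was 4.67 with a limit of 0.1, -71 with a limit of 1, and from -120 to -73.7 without single libraries. Groups did not overlap in 2494 transcripts, and in 22 with a gap of at least 1. Read depth is unknown, so how far it limits the rare transcripts was not tested.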
